A study of Arabidopsis thaliana with 21 samples.

Results

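Sulfate assimilation in Arabidopsis thaliana was followed through 8 genes: the 3 APS reductases APR1 (AT4G04610), APR2 (AT1G62180) and APR3 (AT4G21990), the 4 ATP sulfurylases APS1 (AT3G22890), APS2 (AT1G19920), APS3 (AT4G14680) and APS4 (AT5G43780), and the sulfite reductase SIR (AT5G04590). They were taken by gene ID from 33602 genes in the mRNA table and 32420 in the small RNA tables, and all 8 were present in both. The set was chosen by pathway and by measured values: the small RNA level of APR3, which was high in the dxo1-2dcl4-2 double mutant. All double mutant small RNA values, and those of APR3 in every line, are therefore a description with no test.

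The series asked what AtDXO1, an enzyme that removes NAD caps from RNA and also acts as an exonuclease, does for gene regulation. mRNA was sequenced in 16-day-old plants of the wild type Col-0 and of the mutant lines dxo1-1 and dxo1-2, with no transgene or treatment named. Small RNAs were sequenced at 10 days in Col-0, dxo1-2, dcl4-2 (a mutant of the dicer gene DCL4) and the double mutant dxo1-2dcl4-2. Each group had 3 libraries, 21 in all. Rosette leaves is the tissue on every label, but the small RNA protocol names seedlings. The kind of lesion in each allele and the number of plants per library were not given. Whether replicates were separate cultures is not stated, and p-values therefore reflect only the spread among these libraries, which may be technical.

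Plants take up sulfate and activate it with ATP through ATP sulfurylase to adenosine phosphosulfate. APS reductase then reduces this intermediate to sulfite, a step with much control over the flux, and sulfite reductase reduces sulfite to sulfide in the plastid. Sulfide is joined to O-acetylserine to make cysteine, the source of glutathione. APS kinases lead the same intermediate away from reduction, toward sulfated compounds such as glucosinolates. The microRNA miR395, which accumulates when sulfate is short, targets the mRNAs of APS1, APS3 and APS4 and of the transporter SULTR2;1. Dicer-like proteins cut double-stranded RNA into size classes: DCL4 makes 21-nt RNAs, DCL2 makes 22-nt RNAs and DCL3 makes 24-nt RNAs.

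Estimated from the steps in low values, mRNA depth ran from 17500000 to 20800000 fragments per library, and the 3 size classes together held 173804 to 1403794 small RNA reads per library. Small RNA depth differed between lines, with 173804 to 482309 reads in Col-0 and 728418 to 1403794 in the double mutant. DXO1 mRNA was 10.9 ± 0.974 FPKM (SD, n = 3) in Col-0, 6.73 ± 0.882 in dxo1-2 and 212 ± 31.5 in libraries labelled dxo1-1. The mRNA of the targeted gene was thus far higher, not lower, in libraries labelled dxo1-1, which goes against the usual reading of a mutant label. The summed level of 4 leaf markers was 51331 to 54376 FPKM in Col-0, 27507 to 30931 in libraries labelled dxo1-1 and 30744 to 31294 in dxo1-2, and their part in the results below was not tested. The summed root markers were at 5.97 to 7.12 FPKM in Col-0, 3.06 to 3.86 in libraries labelled dxo1-1 and 1.01 to 2.27 in dxo1-2. The part of this difference in the results was not tested either. The summed seed and flower markers were at or under 0.23 FPKM.

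In the double mutant, the 3 APS reductase genes were covered by small RNAs, mostly of 22 nt, while the ATP sulfurylase and sulfite reductase genes carried few. Reads of 21, 22 and 24 nt at APR1, APR2 and APR3 together made up 0.545% ± 0.0363 (SD, n = 3) of all reads of these classes in the double mutant. The corresponding shares were 0.00969% ± 0.00358 in Col-0, 0.00774% ± 0.00132 in dxo1-2 and 0.00272% ± 0.00147 in dcl4-2. The reads behind these shares numbered 18099 in the double mutant, against 87 in Col-0, 128 in dxo1-2 and 20 in dcl4-2. The high level was thus seen when both mutations were combined, and neither single mutant reached it in any library.

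At APR3, the 22-nt level was 7.75, 6.78 and 7.67 normalized reads in the 3 Col-0 libraries. It was 0, 2.07 and 5.53 in dxo1-2, and 1.75, 0 and 0 in dcl4-2. In the double mutant it was 1635, 1909 and 1608. Every double mutant library stood far above all 9 others. The 21-nt level at APR3 was 426, 550 and 367 normalized reads in the double mutant, against 2.93 to 8.62 in Col-0. The 24-nt level was 175, 147 and 201, against 0.781 to 7.97 in Col-0. All 3 classes were thus higher without overlap, with the 22-nt class the most abundant.

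APR1 and APR2, the paralogs of APR3 that encode the same plastid enzyme activity, followed the same pattern in the double mutant. The 22-nt level at APR1 was 1.94, 3.02 and 0 normalized reads in Col-0, 0.619, 0 and 0 in dxo1-2, 0, 0 and 4.57 in dcl4-2, and 1312, 1408 and 1201 in the double mutant. The 22-nt level at APR2 was 9.69, 0.754 and 0 in Col-0, 1.86, 4.13 and 0 in dxo1-2, 0 in all 3 dcl4-2 libraries, and 473, 466 and 324 in the double mutant. For both genes the lowest double mutant library lay far above the highest library of the other lines. The 0 reads of APR2 among 213771 reads of 22 nt in dcl4-2 allow up to 14.0 RPM, which is reads scaled to the total of the class or classes (3 reads over the group, counting error only).

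**Figure D1:**
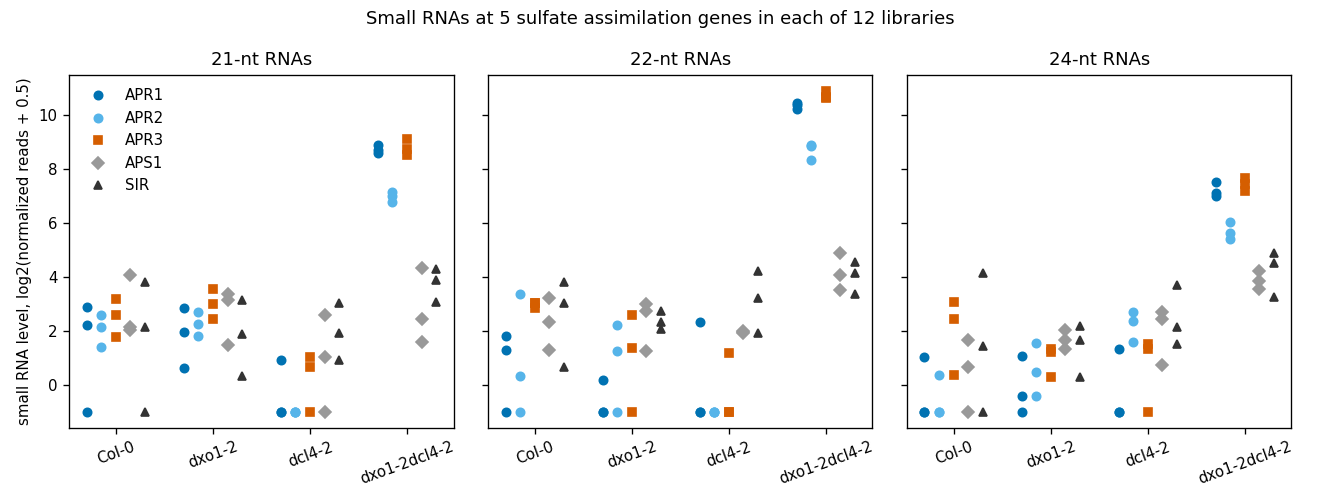
Small RNA level, as log2(normalized reads + 0.5), of APR1, APR2, APR3, APS1 and SIR in each of 12 libraries (points; 3 per line), in the 21-nt, 22-nt and 24-nt classes. The APR genes stand apart from APS1 and SIR in the double mutant and not in the other lines; the 22-nt points of APR3 correspond to 1635, 1909 and 1608 normalized reads.

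Over the 3 classes, APR3 held 2652 ± 178 RPM (SD, n = 3) in the double mutant and 52.7 ± 17.5 in Col-0, 50.4 times as many. APR1 held 2123 ± 98.9 against 19.3 ± 9.69, 110 times as many, and APR2 held 677 ± 126 against 24.9 ± 23.5, 27.2 times as many. Against dxo1-2 the ratios were 69.6 for APR3, 151 for APR1 and 26.8 for APR2. The reference groups held few reads (17 for APR1, 18 for APR2 and 52 for APR3 in Col-0), and the ratios also depend on the scaling. On the authors' normalized reads, the 22-nt level of the double mutant was 232 times that of Col-0 at APR3, 791 times at APR1 and 121 times at APR2, and the 21-nt level 78.9, 117 and 32.7 times. In dcl4-2 the reads were fewer still, at 6, 8 and 6.

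Divided by transcript length, the 22-nt level in the double mutant was highest at APR3, with 962 ± 93.1 normalized reads per kb (SD, n = 3). APR1 followed with 743 ± 58.9 and APR2 with 238 ± 47.5, and this order held in each of the 3 libraries. Among the 9790 features with any 22-nt read in the double mutant, APR3 ranked 46, APR1 51 and APR2 88 by this measure. APS1 ranked 831 with 10.6 ± 5.26, and SIR ranked 1203 with 7.58 ± 2.98. In the 21-nt class APR3 and APR1 did not differ beyond their spread, at 251 ± 52.3 and 242 ± 25.3 normalized reads per kb.

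The size profile at the APR genes was also more weighted to 22 nt than that of the double mutant as a whole. The 22-nt class made up 76.5% ± 0.0911 (SD, n = 3) of the reads at APR3, 72.7% ± 1.76 at APR1 and 73.4% ± 2.48 at APR2. Over all features but these 3 it made up 57.1% ± 0.50 in the same libraries. The lowest APR value was 70.8% and the highest value for the other features, pooled in each library, 57.5%, so these shares did not overlap. Shares of single other features were not computed, so this profile is not shown to be particular to the APR genes. The 24-nt class made up 6.46% ± 1.47 of the reads at APR3, against 16.0% ± 2.08 for the other features. In Col-0, where reads at the APR genes were too few for a profile, the 22-nt class held 22.8% ± 1.32 of all reads.

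**Figure D2:**
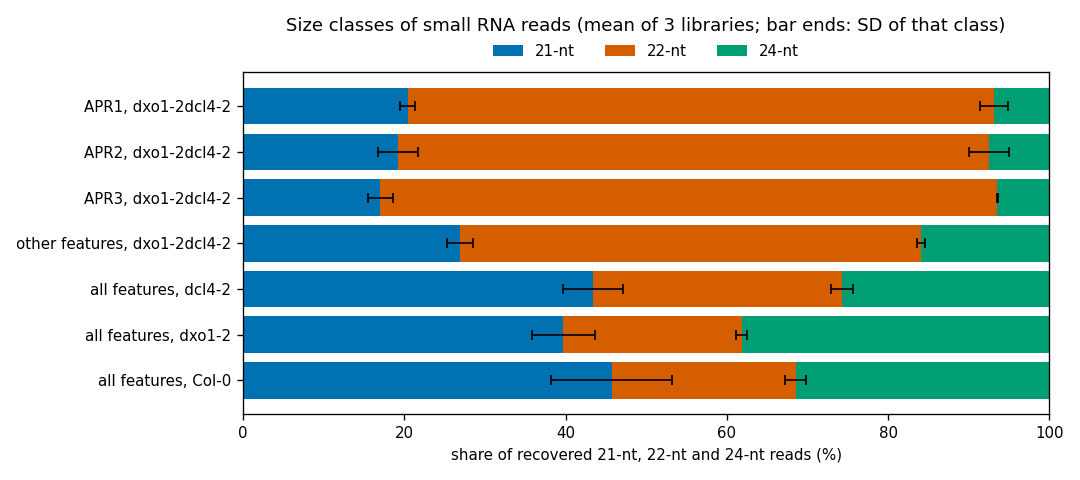
Share (%) of the 21-nt, 22-nt and 24-nt classes among small RNA reads of APR1, APR2, APR3 and all other features in the double mutant, and of all features in dcl4-2, dxo1-2 and Col-0 (bars: mean of 3 libraries; error bars: SD). The 22-nt share is 76.5% at APR3 and 57.1% at the other features of the double mutant.

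The genes before and after reduction showed far smaller differences, whose direction depended on the scaling. APS1, the ATP sulfurylase with the most abundant mRNA, had 147 reads in the double mutant and 39 in Col-0. At the depth of each library this came to 44.9 and 47.6 RPM, a ratio of 0.941. On the authors' normalized reads, however, APS1 was higher in the double mutant without overlap at 22 nt, with 11.02, 29.1 and 16.2 against 1.94, 4.52 and 8.77 in Col-0, or 3.70 times the mean. At 24 nt APS1 averaged 14.4 ± 3.33 against 1.25 ± 1.34 (SD, n = 3), again without overlap. SIR had 178 reads in the double mutant and 63 in Col-0, or 53.9 and 68.6 RPM. In normalized reads SIR averaged 16.7 ± 6.56 against 7.47 ± 6.24 at 22 nt and 20.2 ± 10.3 against 6.46 ± 9.35 at 24 nt, with overlap in both classes. APS2 had 22 reads and APS3 had 23 in the double mutant, against 3 and 10 in Col-0. APS4 had 0 reads among 3281394 in the double mutant, which allows up to 0.914 RPM, and 5 in Col-0. The 5 genes together held 370 reads in the double mutant against 18099 at the APR genes.

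Each APR gene overlaps another annotated gene in the TAIR10.1 annotation, which was used for names and neighbours only. The overlapping partners held few reads in the double mutant: 0 at APG8A beside APR3, 0 at AT4G04614 beside APR1 and 0 at AT1G62170 beside APR2. The reads in the double mutant were thus counted at the APR genes and not at these neighbours. A further partner of APR2, AT1G08477, is not in the small RNA tables used here. The APR genes are near relatives, and the sources used here do not say how reads that match several of them were counted, so the split between them is uncertain.

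Among 44 other sulfur genes in the small RNA tables, SDI2, a gene named for its induction by sulfur deficiency, stood out in the double mutant and is named after its value was seen. It held 751 reads there, against 2 in Col-0, 31 in dxo1-2 and 3 in dcl4-2. Its 22-nt level in the double mutant averaged 110 normalized reads. It was the 1 gene of the 44 with a 22-nt mean of at least 20, and the median over the 44 was 8.5 reads of all classes.

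The features whose 22-nt level was most like that of APR3 over the 12 libraries, by Pearson's r of log2 values, were AT1G15290 (r = 0.981), AT4G28080 (0.970), TPS-CIN (0.958), CRF3 (0.946) and AT1G52100 (0.946). AT1G15290 averaged 1667 normalized reads in the double mutant and 1.76 in the other lines. CRF3, a cytokinin response factor, averaged 2167 and 0.217. The likeness mainly reflects the step between the double mutant and the other 9 libraries, which also differ in depth. APR2 (0.909) and APR1 (0.907) ranked 62 and 64 of 8497 features in this order, and APS1 (0.844) ranked 132.

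In the single mutants, small RNAs at the 7 genes other than APR3 did not pass the test in any class. limma was run on log2(normalized reads + 0.5) where the mean over all small RNA libraries, the double mutant included, reached 1. It tested 6 of the 7 at 21 nt, 5 at 22 nt and 4 at 24 nt. At an adjusted p under 0.05 it called 0 in dxo1-2 and 0 in dcl4-2. APS2 and APS3 at 21 nt and APR1 at 24 nt reached this mean only through the double mutant. Each averaged under 1 normalized read in Col-0, dxo1-2 and dcl4-2, so the lack of a call says little about them. Over all features limma called 0.938% at 21 nt, 0.282% at 22 nt and 0.130% at 24 nt in dxo1-2, and 0.862%, 1.14% and 0.366% in dcl4-2. At an unadjusted p under 0.05 it counted 0 of the 7 in dxo1-2, and in dcl4-2 1 in each class: APR2 at 21 nt, APS3 at 22 nt and APR2 at 24 nt. edgeR and DESeq2 on reads recovered from the values called 0 as well, with DESeq2 giving no adjusted p for some of them.

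The reads at APR2 in dcl4-2 were the nearest to a call. Its 21-nt reads numbered 11 in the Col-0 libraries, 24 in dxo1-2 and 0 in dcl4-2, and the adjusted p (limma) of dcl4-2 against Col-0 was 0.146, or 0.0258 with no filter on low values. The 0 reads among 299793 allow up to 10.0 RPM. At 24 nt the direction was the other way, with 1 read in Col-0 and 8 in dcl4-2.

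The 21-nt reads at the MIR395 genes, the source of miR395, did not pass the test either. MIR395B had 25.4 ± 5.24 normalized reads of 21 nt (SD, n = 3) in Col-0, 7.85 ± 6.98 in dxo1-2, 15.3 ± 8.57 in dcl4-2 and 18.2 ± 16.2 in the double mutant, where 1 library had 0. In RPM over the 3 classes these lines stood at 86.4, 23.4, 52.2 and 17.99. MIR395A had 22.5 ± 17.0, 2.11 ± 2.102, 7.94 ± 9.38 and 3.31 ± 5.74 normalized reads. limma called 0 of the 6 MIR395 genes in dxo1-2 or dcl4-2, with a smallest adjusted p of 0.466 in dxo1-2, where MIR395A and MIR395E passed at an unadjusted p under 0.05. MIR395B and MIR395C had equal values in 12 of 12 libraries, and MIR395A and MIR395E in 11 of 12, so these copies share reads and are not separate evidence. All 6 are listed at 0 FPKM in the mRNA table.

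The mRNAs of the pathway, measured in Col-0 and in single dxo1 lines only, changed at several steps. In both dxo1 lines APR1 and APS3 mRNA fell and APR2, APS2 and APS4 mRNA rose (APR2 in libraries labelled dxo1-1 under neither other scaling), while APR3 fell in libraries labelled dxo1-1 and rose in dxo1-2. limma on log2(FPKM + 1) across 18378 genes called all 8 genes in libraries labelled dxo1-1 against Col-0, 4 higher and 4 lower. It called 75.6% of all genes tested (49.6% higher and 26.0% lower), so a call by itself says little about these genes. In dxo1-2 it called 5 higher and 2 lower, with APS1 not past the threshold, against 73.0% of all genes (51.8% higher and 21.2% lower). The median log2 difference was 0.05 over the 8 genes and 0.21 over all genes in libraries labelled dxo1-1, and 0.36 and 0.25 in dxo1-2.

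The direction counts depend on the scaling. Centring each library on its median moved the share of higher calls over all genes from 65.6 to 44.1% in libraries labelled dxo1-1 and from 71.0 to 43.2% in dxo1-2, and quantile normalization moved it to 44.8 and 45.1%. These scalings moved the median of all genes from 0.21 to -0.10 and -0.09, and from 0.25 to -0.10 and -0.07. Under centring the 8 genes split into 2 higher and 5 lower in libraries labelled dxo1-1, and 4 higher and 4 lower in dxo1-2, and the splits were the same under quantile normalization. In bulk tissue, fewer cells of a type and less RNA per cell cannot be told apart.

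APS3 mRNA changed more than any other of the 8 genes. Its level was 47.1, 47.6 and 45.8 FPKM in Col-0, 8.01, 9.48 and 10.4 in libraries labelled dxo1-1, and 10.9, 11.9 and 11.4 in dxo1-2. The mutant libraries all lay below the Col-0 libraries. The log2 difference from Col-0 was -2.22 (SE 0.0804, adjusted p = 5.71e-10, limma) and -1.95 (SE 0.0804, adjusted p = 2.24e-09).

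APS2, an ATP sulfurylase that lies outside the miR395 targets, rose. Its level was 37.6, 41.4 and 37.6 FPKM in Col-0, 71.7, 65.8 and 67.2 in libraries labelled dxo1-1, and 64.5, 62.4 and 59.7 in dxo1-2, with no overlap between Col-0 and either line. It differed from Col-0 by 0.80 on the log2 scale (SE 0.0554, adjusted p = 1.35e-07, limma) and 0.67 (adjusted p = 7.52e-07). APS4, a miR395 target like APS3, rose as well. It stood at 35.5, 35.3 and 35.4 FPKM in Col-0, 61.8, 69.1 and 65.0 in libraries labelled dxo1-1, and 60.8, 62.2 and 62.1 in dxo1-2. On the log2 scale it was higher by 0.86 (SE 0.0476, adjusted p = 1.90e-08, limma) and 0.78 (adjusted p = 5.29e-08). The annotated targets of miR395 thus did not move together.

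APS1 had the highest level per length of the 8 genes in every group, and its difference from Col-0 depended on the scaling. It stood at 550, 567 and 553 FPKM in Col-0, 513, 526 and 532 in libraries labelled dxo1-1, and 519, 526 and 546 in dxo1-2. The log2 difference was -0.09 (SE 0.0334, adjusted p = 0.0300, limma) in libraries labelled dxo1-1 and -0.07 (adjusted p = 0.0792) in dxo1-2. The first call was lost when Col-0 replicate 2 or 3, or dxo1-1 replicate 1 or 2, was left out, with adjusted p of 0.0531 to 0.114. Under centring the difference was -0.40 and -0.42 in the order of the lines, and under quantile normalization -0.36 and -0.30, all past the threshold.

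On unscaled FPKM the summed ATP sulfurylase level overlapped that of wild type while its makeup changed. The 4 APS genes summed to 678 ± 11.8 FPKM (SD, n = 3) in Col-0, 666 ± 10.5 in libraries labelled dxo1-1 and 666 ± 12.3 in dxo1-2. APS1 makes up most of this sum, and APS1 was lower in both lines under centring and quantile normalization. APS3 made up 6.91% ± 0.105 of the sum in Col-0, 1.39% ± 0.157 in libraries labelled dxo1-1 and 1.71% ± 0.0735 in dxo1-2. APS2 made up 5.73% ± 0.220, 10.2% ± 0.628 and 9.35% ± 0.529, and APS4 5.22% ± 0.108, 9.80% ± 0.455 and 9.27% ± 0.126.

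**Figure D3:**
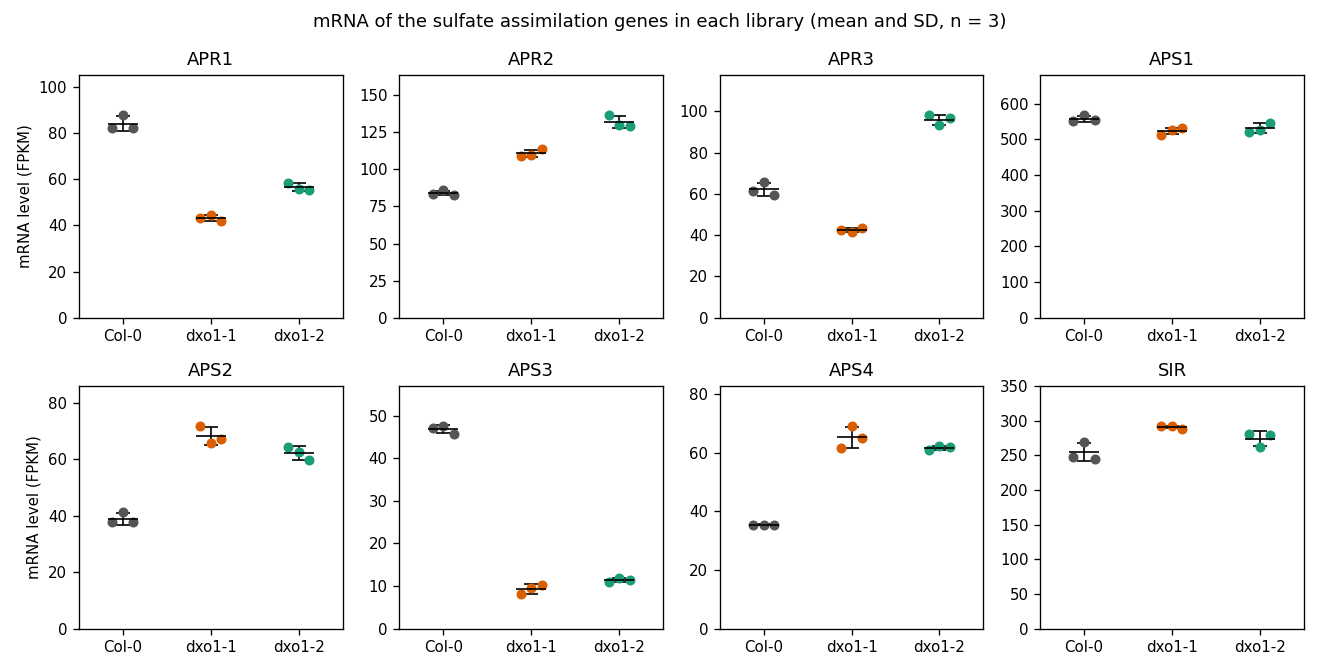
mRNA level (FPKM, axes from 0) of the 8 sulfate assimilation genes in each of 9 libraries (points), with mean and SD per group (n = 3). dxo1-1 marks the libraries labelled so; APR3 falls from 62.2 FPKM in Col-0 to 42.5 there and rises to 96.0 in dxo1-2, and APS3 falls in both.

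The APS reductases parted ways. APR1 was at 82.4, 87.7 and 82.2 FPKM in Col-0, 43.1, 44.3 and 42.0 in libraries labelled dxo1-1, and 58.5, 55.7 and 55.3 in dxo1-2, lower in both lines without overlap. On the log2 scale it differed by -0.95 (SE 0.0464, adjusted p = 7.00e-09, limma) and -0.57 (adjusted p = 6.66e-07). APR2, known as the main isoform for APS reductase activity in leaves, went up in both. It stood at 83.5, 85.9 and 83.0 FPKM in Col-0, 109, 110 and 113 in libraries labelled dxo1-1, and 136, 130 and 130 in dxo1-2. The log2 difference was 0.39 (SE 0.0391, adjusted p = 3.11e-06, limma) and 0.64 (adjusted p = 5.37e-08), but the first came to 0.08 (adjusted p = 0.0679) under centring and to -0.03 (adjusted p = 0.434) under quantile normalization.

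APR3 is the gene whose mRNA moved in opposite directions in the dxo1 lines. Its level was 61.2, 65.9 and 59.4 FPKM in Col-0, 42.7, 41.4 and 43.5 in libraries labelled dxo1-1, and 98.1, 93.4 and 96.7 in dxo1-2. The 3 groups did not overlap. The log2 difference from Col-0 was -0.54 (SE 0.0487, adjusted p = 1.39e-06, limma) and 0.62 (adjusted p = 4.55e-07), and both directions held under centring and quantile normalization. Between the lines it was 1.16, dxo1-2 higher (SE 0.0487, adjusted p = 7.72e-08), or 2.26 times in FPKM.

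The summed APR level, on unscaled FPKM, was 230 ± 7.94 (SD, n = 3) in Col-0. It was 196 ± 2.23 in libraries labelled dxo1-1 and 285 ± 7.45 in dxo1-2. Sums under the other scalings were not computed, so no direction is given for the sum in dxo1-2. Under centring the log2 difference in dxo1-2 came to -0.92 for APR1, 0.29 for APR2 and 0.27 for APR3. APR1 made up 36.5% ± 0.193 of the unscaled sum in Col-0, and 22.0% ± 0.803 and 19.9% ± 0.190 in the mutant lines. APR2 took 36.5% ± 0.591 in Col-0, 56.4% ± 0.589 in libraries labelled dxo1-1 and 46.4% ± 0.324 in dxo1-2. In Col-0 APR1 and APR2 levels did not differ beyond their spread, while in both mutant lines they were far apart.

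SIR, the single sulfite reductase gene, moved little. It stood at 248, 269 and 245 FPKM in Col-0, 292, 292 and 289 in libraries labelled dxo1-1, and 281, 262 and 279 in dxo1-2, where it overlapped Col-0. The log2 difference was 0.20 (SE 0.0442, adjusted p = 0.00184, limma) and 0.11 (adjusted p = 0.0438). Both changed sign under the other scalings, to -0.12 and -0.24 under centring and to -0.18 and -0.24 under quantile normalization, so no direction is given for SIR. The second call was also lost without Col-0 replicate 1 or 3, any one library labelled dxo1-1, or dxo1-2 replicate 1 or 3, with adjusted p of 0.0537 to 0.151, and with the replicate number as a block (adjusted p = 0.0589).

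Between the lines, dxo1-2 against the libraries labelled dxo1-1, 4 of the 8 genes were higher in dxo1-2, 0 were lower and 4 did not pass the test, where 38.1% of all genes were called (22.3% higher and 15.7% lower). The 4 were APR1 (log2 difference 0.38, adjusted p = 0.000108, limma), APR2 (0.25), APR3 (1.16) and APS3 (0.28, adjusted p = 0.0202). Under centring 4 were higher and 2 lower (APS2, adjusted p = 0.0200, and SIR, 0.0287). Under quantile normalization, and without Col-0 replicate 2, APS2 was the 1 lower gene (adjusted p = 0.0490 and 0.0484). The APS3 call was lost without dxo1-1 replicate 1, dxo1-2 replicate 2 or dxo1-2 replicate 3 (adjusted p of 0.0508 to 0.0683) and with no filter on low values (0.0656). The 3 APR genes were thus all higher in dxo1-2, and their calls held without any single library. For APS1, APS2, APS4 and SIR the log2 differences lay between -0.13 and 0.02, and the median was 0.14 over the 8 genes and 0.06 over all genes.

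Levels per length kept part of their order. APS1 and then SIR were highest in every group, with APR2 next in both mutant lines. In Col-0 the order after APR2, APR1 and APR3 was APS3, APS2 and APS4, of which APS2 and APS4 stood at 38.9 ± 2.18 and 35.4 ± 0.125 FPKM. In both mutant lines APS3 was the lowest of the 8, and APS2 and APS4 did not differ beyond their spread.

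The genes whose mRNA was most like that of APR3 over the 9 libraries, by Pearson's r of log2(FPKM + 1), were BBX14 (r = 0.999), TCH4 (0.995), AT1G03740 (0.995), TUA3 (0.990) and GDU4 (0.990). BBX14, a B-box zinc finger protein, was at 228 ± 12.1 FPKM (SD, n = 3) in Col-0, 166 ± 2.91 in libraries labelled dxo1-1 and 317 ± 6.05 in dxo1-2. TCH4, a xyloglucan-modifying enzyme, was at 151 ± 8.17, 119 ± 2.69 and 203 ± 3.47. These values share libraries with APR3. Among the sulfur deficiency genes, LSU3 ranked 15 (r = 0.973), GGCT2;1 38 (0.959) and LSU1 106 (0.926) of 18377 genes. The other tested genes of that list ranked lower, from SDI1 at 894 (0.754) to SLIM1 at 16241 (-0.345). SDI2 ranked 2426 (0.553). APR2 and APR1 themselves ranked 3750 (0.428) and 4654 (0.362).

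Genes known to respond to sulfur deficiency were split in libraries labelled dxo1-1 and mostly higher in dxo1-2. Of 10 listed, 9 were tested, and BGLU28 was too low at 0 to 0.28 FPKM. In libraries labelled dxo1-1, 4 rose and 5 fell, with a median log2 difference of -0.35 (0.21 over all genes). Of all genes, 49.6% were higher and 26.0% lower there. In dxo1-2, 7 rose, 1 fell and 1 did not pass, with a median of 0.47 (0.25 over all genes). Of all genes, 51.8% were higher and 21.2% lower in dxo1-2. Under centring the counts were 1 higher and 5 lower, and 4 higher and 3 lower, so the count in dxo1-2 depends on the scaling. Between the lines 7 of the 9 were higher in dxo1-2 and 0 lower, against 22.3% and 15.7% of all genes. The median was 0.96 (0.06 over all genes). Under both other scalings 7 were also higher, and 1 was lower.

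SDI2, which the double mutant small RNAs also singled out, rose in both lines. It was at 19.0, 22.9 and 21.1 FPKM in Col-0, 49.5, 45.4 and 47.7 in libraries labelled dxo1-1, and 111, 113 and 113 in dxo1-2. Its log2 difference from Col-0 was 1.14 (SE 0.0637, adjusted p = 2.05e-08, limma) and 2.37 (adjusted p = 8.32e-11). LSU2, one of a family of small proteins induced by low sulfur, rose by 0.45 and 1.29 on the log2 scale. The first rise depended on the scaling. Under centring and under quantile normalization, 1 of the 9 tested sulfur deficiency genes was called higher in libraries labelled dxo1-1, and it was not LSU2. SDI1, a repressor of glucosinolate synthesis, fell from 19.1 ± 1.78 to 4.88 ± 0.826 FPKM in libraries labelled dxo1-1 and stood at 16.1 ± 1.59 in dxo1-2, where it did not pass the test (adjusted p = 0.0892, limma). SHM7, a serine hydroxymethyltransferase, fell by 1.48 and by 0.53 on the log2 scale.

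On unscaled FPKM, LSU1, LSU3 and GGCT2;1 moved in opposite directions in the lines, as APR3 did. They are named after their values were seen. LSU1 was at 36.1 ± 2.84 FPKM in Col-0, 18.6 ± 3.02 in libraries labelled dxo1-1 and 50.5 ± 6.39 in dxo1-2. LSU3 was at 22.1 ± 1.51, 14.0 ± 1.54 and 39.9 ± 4.61. GGCT2;1, a glutathione-degrading enzyme, was at 10.3 ± 0.187, 7.87 ± 0.699 and 12.5 ± 0.584. All 6 differences from Col-0 passed the test (limma, largest adjusted p 0.00772). However, the rise of LSU1 in dxo1-2, 0.47 on the log2 scale, came to 0.11 under centring, where it was not called. The rise of GGCT2;1 in dxo1-2, 0.26 on the log2 scale, came to -0.09 under centring and -0.08 under quantile normalization.

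In the branch that leads away from reduction, 2 of 4 APS kinases, APK1 and APK2, fell in both lines, as did the PAP phosphatase SAL1. APK3 and APK4 did not pass the test and 0 of the 5 rose, where 26.0% and 21.2% of all genes were lower. APK1 stood at 148 ± 7.94 FPKM in Col-0, 63.7 ± 2.05 in libraries labelled dxo1-1 and 71.3 ± 1.30 in dxo1-2 (log2 difference -1.20 and -1.04, adjusted p = 1.26e-09 and 5.24e-09, limma). APK2 fell from 161 ± 5.89 to 93.8 ± 3.78 and 87.1 ± 1.03, and SAL1 from 54.0 ± 2.72 to 43.2 ± 0.768 and 42.3 ± 1.15. The median log2 difference of the 5 was -0.31 and -0.34, against 0.21 and 0.25 over all genes.

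Among cysteine synthesis genes, 3 serine acetyltransferases, which make O-acetylserine, rose in both lines, and OASB, the plastid O-acetylserine thiol-lyase, fell. Of 8 genes, 5 rose, 1 fell and 2 did not pass in libraries labelled dxo1-1, and 4 rose, 1 fell and 3 did not pass in dxo1-2, where 75.6% and 73.0% of all genes were called. SERAT3;1 passed in neither line and SERAT3;2 did not pass in libraries labelled dxo1-1. SERAT2;1 rose from 19.3 ± 1.10 FPKM to 65.1 ± 4.97 and 36.5 ± 0.731 (log2 difference 1.70 and 0.89). SERAT2;2 rose by 0.94 and 0.87 and SERAT1;1 by 0.89 and 0.57, whereas OASB fell by 0.63 and by 0.48. The median of the list was 0.13 and 0.24, close to that of all genes. Under centring the list had 3 higher and 5 lower, and 3 higher and 4 lower.

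Glutathione genes moved unevenly. GR1, a glutathione reductase, rose from 41.6 ± 1.99 FPKM to 100 ± 2.72 and 88.5 ± 0.853 (log2 difference 1.25 and 1.07). GSH2, glutathione synthetase, fell by 0.51 and by 0.54, and GSH1, which makes its substrate, fell by 0.30 in dxo1-2 while standing at -0.06 (adjusted p = 0.134, limma) in libraries labelled dxo1-1. GR2 stood at -0.09 (adjusted p = 0.110) and -0.13 (adjusted p = 0.0227). Of the 4 genes, 1 rose and 1 fell in libraries labelled dxo1-1, and 1 rose and 3 fell in dxo1-2, where 75.6% and 73.0% of all genes were called. Under centring and under quantile normalization, 1 was higher and 3 were lower in each line.

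Of 12 sulfate transporters, 8 were tested. In libraries labelled dxo1-1, 3 rose and 5 fell, and in dxo1-2, 2 rose, 4 fell and 2 did not pass, against 75.6% and 73.0% of all genes called (26.0% and 21.2% lower). Under both other scalings the counts were 2 higher and 5 lower, and 1 higher and 4 lower. SULTR1;2, a root uptake transporter, rose from 3.42 ± 0.473 FPKM to 6.14 ± 0.224 and 6.47 ± 0.240. SULTR4;2, which exports sulfate from the vacuole, fell from 9.14 ± 1.11 to 3.21 ± 0.516 and 5.50 ± 1.05. SULTR3;3 fell by 0.60 and by 0.68 on the log2 scale. SULTR3;1 rose by 0.92 in libraries labelled dxo1-1 and stood at 0.29 in dxo1-2 (adjusted p = 0.0915, limma), with a negative sign under both other scalings. SULTR2;1, the miR395 target named here for that reason, fell from 63.5 ± 2.73 to 50.8 ± 2.30 and 57.3 ± 1.77 FPKM (log2 difference -0.32 and -0.15, adjusted p = 0.000158 and 0.0224).

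The 4 APR-like genes resemble APS reductases but carry no known activity of that kind. Of them, 3 passed the test above Col-0 in libraries labelled dxo1-1 and 2 in dxo1-2, and 0 below it. Of all genes, 49.6% and 51.8% were called higher, so these counts say little. APRL6 differed by 0.61 (log2) and 0.15, APRL5 by 0.18 and 0.29 and APRL4 by 0.19 and 0.22. Other than APRL6 in libraries labelled dxo1-1, these differences turned negative under centring and under quantile normalization, so no direction is given for the list. Sulfite oxidase, SOX, which turns sulfite back into sulfate, did not pass the test in either line (log2 difference 0.09 and 0.10, adjusted p = 0.0661 and 0.0523, limma). Under centring SOX was called lower in both, at -0.22 and -0.25, and under quantile normalization at -0.33 and -0.29.

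**Figure D4:**
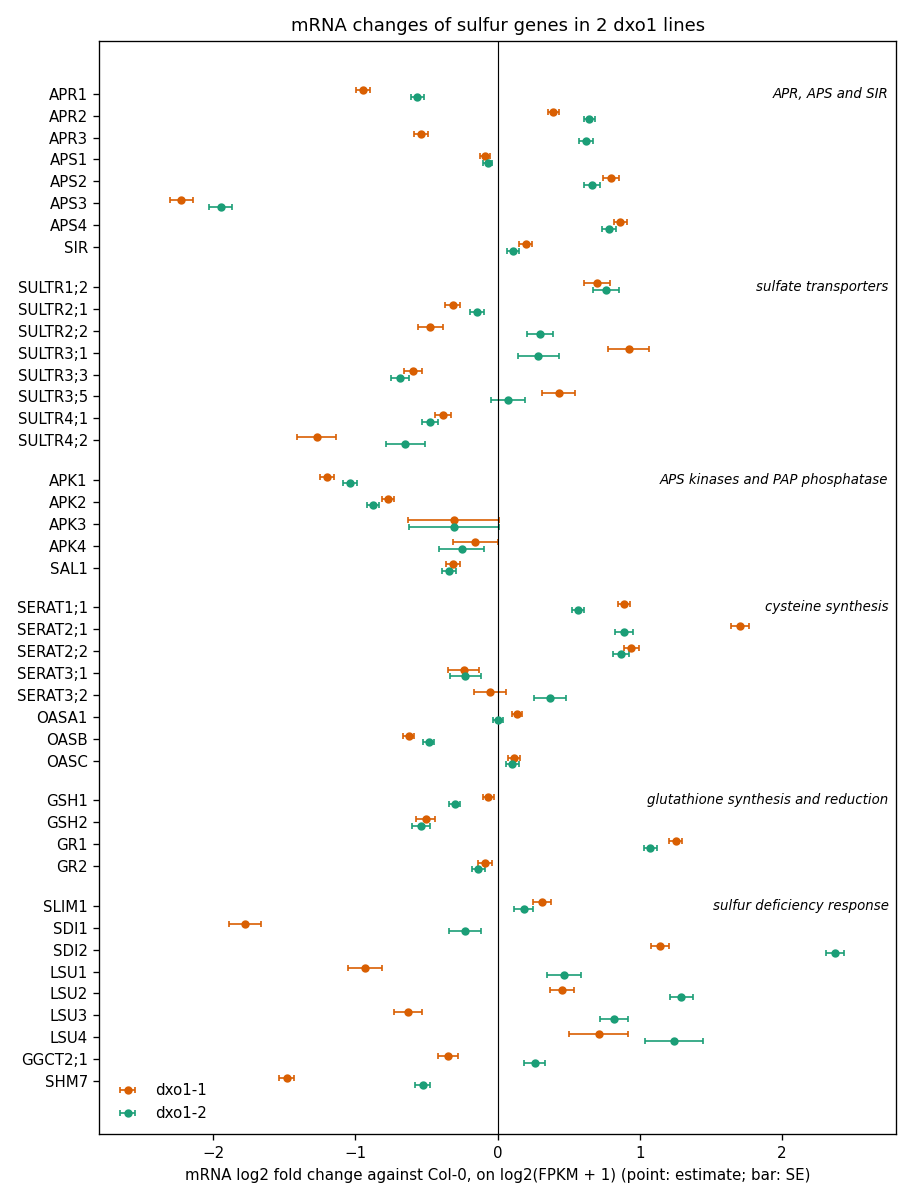
mRNA log2 fold change against Col-0 (estimate and SE, on log2(FPKM + 1)) of the 8 genes and 5 lists of sulfur genes, in libraries labelled dxo1-1 and in dxo1-2. APS3 lies farthest to the left, at -2.22 and -1.95, and APR3, LSU1, LSU3 and GGCT2;1 lie on opposite sides of 0 in the lines.

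For the APR genes the mRNA and small RNA values stand side by side only for Col-0 and dxo1-2, and at different ages (16 and 10 days). In dxo1-2, APR2 and APR3 mRNA rose and APR1 mRNA fell, while their small RNA reads over the 3 classes numbered 39, 64 and 25, against 18, 52 and 17 in the shallower Col-0 libraries. At the depth of each library these came to 25.2, 38.1 and 14.0 RPM in dxo1-2, against 24.9, 52.7 and 19.3 in Col-0. The libraries of these lines overlapped at each gene. mRNA of dcl4-2 and of the double mutant was not analysed here. In dxo1-2 at 16 days, APS1 and SIR had mRNA levels per length above those of the APR genes. Their small RNA reads in the double mutant, another line at 10 days, numbered 147 and 178. Whether mRNA level bears on small RNA level was not tested.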

How the data were processed

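mRNA values were FPKM per gene, deposited by the authors in 1 table with a gene length column. The submitters' processing notes name TopHat2 2.1.0, RSEM 2.1.30, Bowtie and the TAIR10 build; the sources used here do not state strand use or the handling of reads with several matches. APR1, APR2, APR3, APS2, APS3 and APS4 overlap other annotated genes, so their mRNA values are uncertain to that extent. Small RNA values are a signal: reads per gene for 3 size classes, normalized by the authors per the labels. Dividing by the smallest step returned whole reads for 100% of values above 0 (tolerance 0.001 reads).

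limma 3.58.1 in R 4.3.3 was fitted to log2(FPKM + 1), keeping the 18378 genes whose mean reached 1 FPKM. It was also fitted to log2(normalized reads + 0.5), keeping features whose mean over all small RNA libraries reached 1. Benjamini-Hochberg adjustment ran over all genes tested, with a threshold of 0.05. Fold changes on these scales understate changes of low genes. edgeR 4.0.16 and DESeq2 1.42.0 were run on recovered reads as alternatives. Other alternatives were the pseudocount, the filter, centring, quantile normalization, each library left out and a replicate block. Scripts were tested on simulated data. For small RNAs, the features changed there started from means above those of the sulfate assimilation genes in Col-0, so such low levels were not covered. mRNA depth was estimated from low FPKM values, of which 93.7 to 96.8% lay near whole multiples; mean fragment length came out at 325 for Col-0 replicates 1 and 3 and 370 to 385 for the others. Intervals and floors cover counting error only.

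Named were all 8 genes, up to 4 genes per other list with the largest change among those past the test in either line, DXO1, and the 5 features most like APR3 in each data type; exceptions are stated. Members and lists were chosen with earlier results of these data known. Symbols came from the RefSeq gene table (TAIR10.1), which matched 32835 mRNA and 31722 small RNA IDs. No sequences or coordinates are printed.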

Additional observations from a re-analysis of the deposited data

Results flagged for a closer look

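By the test of dxo1-2 against the libraries labelled dxo1-1 (limma), 4 of the 8 genes were higher in dxo1-2. Of all genes, 22.3% were higher and 15.7% lower. The log2 difference was 0.38 for APR1, 0.25 for APR2, 1.16 for APR3 and 0.28 for APS3. The APS3 call was lost in 3 of the runs with a library left out, and with no filter on low values. Further sulfur genes differed in either direction, among them LSU1 (1.40), LSU3 (1.45) and GGCT2;1 (0.61). Like APR3, these passed the test in opposite directions against Col-0. Under centring, the rises of LSU1 and GGCT2;1 in dxo1-2 against Col-0 were not called. All 3 libraries of each line lay apart for these 7 genes, which were picked because they differed. They also lay apart for APS2 and SIR, which did not pass the test. The share of all genes that lay apart was not computed. DXO1 mRNA itself stood at 212 ± 31.5 FPKM in libraries labelled dxo1-1 and 6.73 ± 0.882 in dxo1-2 (SD, n = 3), and its part in these differences was not tested.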

How the results depend on the processing

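Counts of called mRNAs among the 8 genes stayed within 1.5 times of the reported ones under every alternative run, at 7 to 8, 6 to 7 and 3 to 5 when single libraries were left out, in the order libraries labelled dxo1-1 against Col-0, dxo1-2 against Col-0 and between the lines. Small RNA counts stayed at 0 with each library left out. With no filter on low values, 1 gene, APR2, was called lower at 21 nt in dcl4-2 (adjusted p = 0.0258, limma), where the adjustment and spread are taken over more features. Signs turned mostly under centring and quantile normalization. In the libraries labelled dxo1-1 these gave log2 differences of -0.12 and -0.18 for SIR, -0.13 and -0.18 for APRL5, and -0.12 and -0.16 for APRL4, and quantile normalization gave -0.030 for APR2. In dxo1-2 they gave -0.24 and -0.24 for SIR, -0.066 and -0.015 for SULTR3;1, -0.20 and -0.19 for APRL6, -0.061 and -0.11 for APRL5, -0.13 and -0.16 for APRL4, and -0.093 and -0.075 for GGCT2;1. APS1 between the lines came to -0.021 under centring, and ranged from -0.0019 (without dxo1-2 replicate 3) to 0.035 with single libraries left out. SOX, not past the test as reported, was called lower under both (-0.22 and -0.25 under centring, -0.33 and -0.29 under quantile normalization, in the order of the lines). The cause of these turns was not tested.

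Whether replicate numbers pair the libraries is not settled for mRNA. Correlations of deviations between same-numbered mRNA libraries were -0.0337 to 0.0945 (median 0.050). Between differently numbered mRNA libraries they were -0.104 to 0.0890 (median -0.024). Of the mRNA libraries, 6 of 9 correlated best with their own number, and for small RNAs 6, 1 and 3 of 12 did at 21, 22 and 24 nt. With the number as a block, 8, 6 and 4 mRNAs were called, and 0 small RNAs in every class and contrast. Depth limits the small RNA tests of the single mutants, since several genes had fewer than 10 reads per group.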
